A study of Mus musculus with 8 samples.

Results

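The genes described here encode the 3 large enzyme families of phase II metabolism in mouse liver: UDP-glucuronosyltransferases (UGT), glutathione transferases (GST) and sulfotransferases (SULT). They were chosen by symbol, as the rows of the count table that begin with Ugt1 to Ugt3, with Gst and a class letter, with Mgst or with Sult, and 66 of its 24982 genes did so. At least 20 counts over the 8 libraries were found for 51 of them: 18 UGT, 22 GST and 11 SULT genes. Just inside that limit were Sult2a1 with 22 counts and Sult2a6 with 23, and just outside it Gsto2 with 19 and Sult2a4 with 18. A filter on low counts passed 47 of the 51 for testing, and Sult2a1, Sult2a2, Sult2a6 and Sult2a7 were left as counts.

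Phase II enzymes join a water-soluble group to a drug, hormone or breakdown product, which can then be carried into bile or blood for excretion. UGTs transfer glucuronic acid from UDP-glucuronic acid onto bilirubin, steroids, bile acids and phenols. GSTs join glutathione to reactive electrophiles such as products of lipid peroxidation, and SULTs transfer sulfate from the donor PAPS onto steroids, bile acids, phenols and catecholamines. In liver these enzymes are made mainly by hepatocytes, and after obstruction of bile flow they act on bilirubin and bile acids that can no longer leave by the usual route.

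RNA was sequenced from livers of mice that carry RiboTag, an allele in which Cre recombinase adds a haemagglutinin tag to a ribosomal protein so that ribosomes of chosen cells can be pulled down with their RNA. In all 8 libraries Cre was driven by LysM (the Lyz2 locus), a driver for macrophages and other myeloid cells. The 4 groups of 2 libraries were LysM-Cre:Ribotag controls, LysM-Cre:Ribotag 17 days after bile duct ligation (BDL), LysM-Cre:Hmoxflfl:Ribotag controls and LysM-Cre:Hmoxflfl:Ribotag 17 days after BDL. BDL ties off the common bile duct and causes cholestasis and fibrosis. The Hmoxflfl allele was meant to remove haem oxygenase 1 (HO-1, gene Hmox1) from myeloid cells, and the study set out to learn what myeloid HO-1 does in this injury. LysM-Cre:Ribotag is called wild type here.

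The targeted gene did not follow the genotype label. Hmox1 was at 6.22 and 7.46 CPM in wild-type controls, 26.05 and 23.97 in wild-type BDL libraries, 22.5 and 29.9 in controls labelled HO-1 deleted and 72.3 and 95.5 in BDL libraries labelled HO-1 deleted. It was thus higher, not lower, under the deletion label, so these groups are named by their label (labelled HO-1 deleted) throughout. The part of Hmox1 that is floxed was not looked at separately. Lyz2, the Cre locus, was at 8.04 to 27.3 CPM in the wild-type libraries and at 0.128 to 0.665 CPM in those labelled HO-1 deleted. CPM are counts per 1000000, scaled to an equal effective library size.

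Library totals were 9807364 to 40892211 counts, of which the ribosomal RNA gene RN45S took 10.3 to 66.8%, leaving 3254357 to 31639682 counts for other genes, fewest in BDL replicate 2 labelled HO-1 deleted. The labelled cell type is myeloid, yet a list of 26 hepatocyte genes held 6.84 to 11.2% of the counts outside RN45S, against 0.0610 to 0.186% for 15 Kupffer cell genes. Albumin alone was at 11590.1 to 25156 CPM, and the conjugation genes are therefore read in RNA rich in hepatocyte transcripts. The labels give the molecule as total RNA and do not say whether a library was made from pulled-down or from input RNA, so the values may or may not be those of ribosome-bound RNA from tagged cells. Of the hepatocyte list Ass1 was at 0 in 7 libraries. Wild-type BDL replicate 1 held 22821 counts of Xist and none of Ddx3y, the pattern of a female, while the 7 other libraries held 197 to 4618 counts of Ddx3y and at most 8 of Xist. In such bulk RNA, fewer cells of a type and less RNA per cell cannot be told apart. Nothing in the labels says that the 2 libraries of a group came from separate animals. By Xist and Ddx3y the wild-type BDL pair cannot have come from the same animal. In the other groups the spread behind the p-values may be technical only.

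Levels of different genes can be compared only per length, on the deposited FPKM (fragments per kilobase of transcript and per 1000000 mapped). In the wild-type controls the highest members were Gstp1 at 596 ± 176 FPKM (mean ± SD, n = 2) and Mgst1 at 563 ± 196 FPKM, which did not differ beyond their spread. Gsta3 followed at 183 ± 19.7 FPKM, Gstp2 at 177 ± 22.7 FPKM and Gstm1 at 155 ± 11.96 FPKM. The leading UGTs were Ugt2b5 at 141 ± 52.3 FPKM, Ugt2b1 at 108 ± 36.1 FPKM and Ugt2b36 at 102 ± 39.7 FPKM, again within their spread. The leading SULT was Sult2a8 at 77.2 ± 3.51 FPKM. The rank of Gstp2 holds on FPKM only, as described with the pi class.

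After BDL the members parted by family. No UGT rose, 4 mu and 3 alpha GSTs rose, Gstp1 fell, and among the SULTs Sult2a8 and Sult5a1 fell steeply while Sult1e1 rose. In wild type 9 of the 47 tested members rose and 9 fell, 38.3% of them, where 18.4% of all 14147 genes tested were called, 11.8% higher and 6.59% lower. Under the deletion label 8 rose and 15 fell, 48.9%, where 27.5% of all genes were called, 15.1% higher and 12.4% lower. The 2 BDL values lay outside the 2 control values for 10 members upward and 22 downward in wild type (68.1%, where 61.3% of all genes did so), and for 13 upward and 25 downward under the deletion label (80.9%, where 66.2% did). The median log2 fold change of the members was -0.37 in wild type and -0.75 in the libraries labelled HO-1 deleted, and over all genes it was 0.02 and -0.03. Genes are called at an adjusted p under 0.05 in edgeR's quasi-likelihood test with Benjamini-Hochberg adjustment over all genes.

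Some of these counts rest on single libraries. In wild type 14 in place of 9 members fell without either BDL library labelled HO-1 deleted (replicate 1 or 2), and 15 fell without both the library with female Xist counts and the one with the fewest counts. Under the deletion label 8 in place of 15 fell without BDL replicate 1 of that label. The calls that held in every setting that gave a value were those of Gsta1, Gstm3, Mgst3, Gstp1, Sult2a8, Sult5a1 and Ugt2b1 in wild type and those of Gsta1, Gstm3, Sult2a8, Sult5a1, Ugt2b1 and Ugt3a1 under the deletion label.

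The BDL comparisons share no library, but the spread of each gene was estimated over all 8 libraries, so their calls are not independent. The overlap of calls over all genes is not given here. The 8 members called higher under the deletion label were all among the 9 called higher in wild type: Gsta1, Gsta2, Gsta4, Gstm1, Gstm2, Gstm3, Gstm5 and Sult1e1. Of the members called lower, 6 were shared, which is 66.7% of the wild-type list and 40% of the other: Gstp1, Sult1b1, Sult2a8, Sult5a1, Ugt2b1 and Ugt2b38. The plot of log2 fold changes shows each member in both comparisons.

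**Figure D1:**
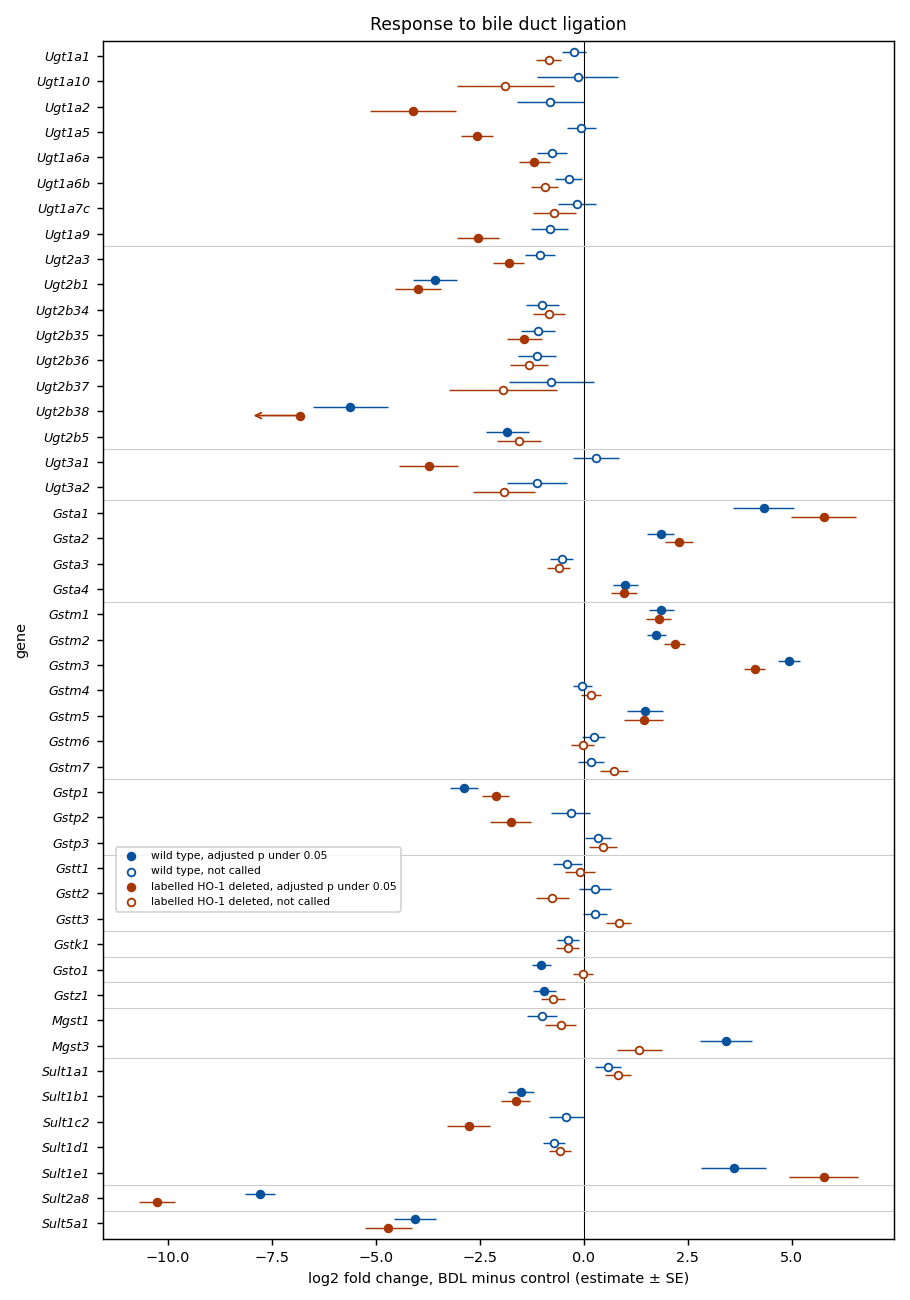
Log2 fold change (BDL minus control, x axis, ± SE) of the 47 tested members (rows, by family) in wild type (blue) and in the libraries labelled HO-1 deleted (brown); filled points have an adjusted p under 0.05, and the arrow marks Ugt2b38, whose fold is a lower bound. All filled UGT points lie to the left of 0, and Gstm3, Gsta1 and Sult1e1 lie farthest to the right.

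Among the UGTs none was called higher in either comparison. In wild type 3 of 18 fell, all of the UGT2 family, and under the deletion label 9 of 18 fell: 4 of 8 UGT1, 4 of 8 UGT2 and 1 of 2 UGT3 genes. These were 16.7% in wild type and 50% under the deletion label. Over all genes 18.4% and 27.5% were called in either direction, and 6.59% and 12.4% were called lower. In wild type the share of UGTs called was thus near that of all genes called in either direction. The summed level of the 18 genes was 2102 and 1286 CPM in wild-type controls, 708 and 628 in wild-type BDL libraries, 1943 and 2095 in controls labelled HO-1 deleted and 340.2 and 937 in BDL libraries labelled HO-1 deleted. Every BDL library was thus below every control. The lowest sum was in BDL replicate 1 labelled HO-1 deleted, which also had the lowest albumin and the lowest share of the hepatocyte list (6.84%, against 8.59 to 11.2% in the 7 others), and the part of either in the UGT values was not tested.

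Ugt2b1, in the family that conjugates steroids and bile acids, showed the largest fall of an abundant UGT. It was at 460.0 and 284 CPM in wild-type controls, 32.7 and 29.6 in wild-type BDL libraries, 385 and 476 in controls labelled HO-1 deleted and 12.1 and 44.3 in BDL libraries labelled HO-1 deleted. Its log2 fold change was -3.58 ± 0.54 in wild type (adjusted p = 0.00185) and -3.98 ± 0.55 in the libraries labelled HO-1 deleted (adjusted p = 0.000906), and the BDL and control values did not overlap. In controls it supplied 19.8 to 22.7% of all UGT counts, the largest share, which Ugt2b36 held in all 4 BDL libraries with 15.4 to 19.9%. Counts are not per length. By FPKM Ugt2b5 was above Ugt2b1 in every control, and Ugt2b36 led in neither BDL library labelled HO-1 deleted.

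Ugt2b38 fell to 0 or near 0 counts after BDL. It was at 11.3 and 3.41 CPM in wild-type controls, 0.234 and 0 in wild-type BDL libraries, 7.82 and 12.9 in controls labelled HO-1 deleted and 0 and 0 in BDL libraries labelled HO-1 deleted. The log2 fold change in wild type was -5.61 ± 0.90 (adjusted p = 0.00475). Both BDL libraries labelled HO-1 deleted were at 0 counts where their controls held 791, so that the level there was at least 113-fold lower, taking a floor of 3 counts over the group. The call under the deletion label did not hold without BDL replicate 1 labelled HO-1 deleted (adjusted p = 0.0545). The deposited FPKM did not go to 0 in those libraries: Ugt2b38 was listed at 2.73 and 3.04 FPKM.

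Ugt2b5 fell to a lesser degree, with values of 376 and 223 CPM in wild-type controls, 97.4 and 70.3 in wild-type BDL libraries, 308 and 368 in controls labelled HO-1 deleted and 49.6 and 183 in BDL libraries labelled HO-1 deleted. Its log2 fold change was -1.84 ± 0.52 in wild type (adjusted p = 0.0364) and -1.56 ± 0.52 in the libraries labelled HO-1 deleted (adjusted p = 0.0509), so that it passed the threshold in wild type only. The wild-type call did not hold without wild-type control replicate 1 or 2, wild-type BDL replicate 1 or 2 or control replicate 1 labelled HO-1 deleted (adjusted p = 0.0516 to 0.229). Ugt2b5 and Ugt2b38 share sequence: 34.8% of the 50-base words of the longest Ugt2b5 transcript also occur in Ugt2b38, and 34.1% the other way, so reads may be split between them.

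The promoters of Ugt2b5, Ugt2b37 and Ugt2b38 also share a stretch, which is shown because Ugt2b5 and Ugt2b38 were called lower in wild type and Ugt2b37, between them, was not. It is 62 bases long and occurs in only these 3 of the 27025 promoters in the RefSeq table (build GRCm38.p6, 250 bases before each start). Sequences are printed 5′ to 3′ along the gene. The capitals mark the shared stretch, and all 3 lie on the minus strand, at chr5:87140341-87140428, chr5:87254792-87254893 and chr5:87424204-87424294.
Ugt2b5: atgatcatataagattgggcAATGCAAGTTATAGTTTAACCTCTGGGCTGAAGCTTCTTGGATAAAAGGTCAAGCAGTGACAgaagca
Ugt2b37: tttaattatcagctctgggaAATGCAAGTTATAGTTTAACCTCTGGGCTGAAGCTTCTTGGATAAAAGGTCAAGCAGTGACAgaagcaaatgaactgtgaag
Ugt2b38: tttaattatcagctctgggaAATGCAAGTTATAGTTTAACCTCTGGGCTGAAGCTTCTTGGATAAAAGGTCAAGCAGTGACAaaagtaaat
With this stretch in common, Ugt2b38 had 0.234 and 0 CPM in the wild-type BDL libraries, Ugt2b5 had 97.4 and 70.3 CPM, and Ugt2b37, which was not called (log2 fold change -0.78 ± 1.03 in wild type), had 2.89 and 0.655 CPM. CPM are not per length and do not rank these genes. In the same libraries the FPKM were 4.86 and 2.44 for Ugt2b38, 33.4 and 26.1 for Ugt2b5 and 2.63 and 1.07 for Ugt2b37. By FPKM Ugt2b38 was thus above Ugt2b37, the reverse of their order by CPM.

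The remaining UGT2 genes moved less. Under the deletion label Ugt2a3 fell by a log2 fold change of -1.80 ± 0.37 (adjusted p = 0.00566) and Ugt2b35 by -1.43 ± 0.42 (adjusted p = 0.0288). The Ugt2b35 call did not hold without control replicate 1 or 2 labelled HO-1 deleted or BDL replicate 1 labelled HO-1 deleted (adjusted p = 0.0858 to 0.124). In wild type their values were -1.05 ± 0.36 and -1.10 ± 0.41 and missed the threshold (adjusted p = 0.0666 and 0.0938). Ugt2b34, Ugt2b36 and Ugt2b37 were called in neither comparison.

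The UGT1 genes share one locus, where each gene has its own first exon and all use the same later exons. Ugt1a1, the enzyme that conjugates bilirubin, was at 100.3 and 106 CPM in wild-type controls, 90.7 and 84.8 in wild-type BDL libraries, 137 and 115 in controls labelled HO-1 deleted and 47.5 and 94.8 in BDL libraries labelled HO-1 deleted. It was called in neither comparison (-0.23 ± 0.30 in wild type, adjusted p = 0.636, and -0.84 ± 0.30 in the libraries labelled HO-1 deleted, adjusted p = 0.0564, log2 fold changes). Among the UGT1 genes it led by counts, not per length, in all 8 libraries, with 39.9 to 59.3% of the family's counts.

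Ugt1a5 and Ugt1a2 fell under the deletion label. Ugt1a5 was at 33.5 and 32.99 CPM in wild-type controls, 18.3 and 45.6 in wild-type BDL libraries, 56.3 and 54.1 in controls labelled HO-1 deleted and 8.01 and 11.3 in BDL libraries labelled HO-1 deleted. Both of the last values lie below every other library, and the log2 fold change was -0.06 ± 0.35 in wild type (adjusted p = 0.924) and -2.56 ± 0.38 in the libraries labelled HO-1 deleted (adjusted p = 0.00108). Ugt1a2 was at 13.00 and 13.7 CPM in wild-type controls, 1.90 and 13.8 in wild-type BDL libraries, 17.1 and 25.3 in controls labelled HO-1 deleted and 0.967 and 1.99 in BDL libraries labelled HO-1 deleted. Its log2 fold change was -0.80 ± 0.80 in wild type (adjusted p = 0.552) and -4.11 ± 1.04 in the libraries labelled HO-1 deleted (adjusted p = 0.0315), and the call did not hold without wild-type control replicate 1 or 2, control replicate 1 or 2 labelled HO-1 deleted or BDL replicate 1 or 2 labelled HO-1 deleted (adjusted p = 0.0776 to 0.228). The low value of 1.90 CPM in wild type belongs to the library with female Xist counts.

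Ugt1a9 and Ugt1a6a also fell in the libraries labelled HO-1 deleted. Ugt1a9 was at 26.4 and 12.9 CPM in wild-type controls, 10.5 and 11.7 in wild-type BDL libraries, 26.03 and 23.2 in controls labelled HO-1 deleted and 2.40 and 7.53 in BDL libraries labelled HO-1 deleted, and its log2 fold change was -0.82 ± 0.43 in wild type (adjusted p = 0.227) and -2.55 ± 0.50 in the libraries labelled HO-1 deleted (adjusted p = 0.00562). For Ugt1a6a, an enzyme of planar phenols, the values were -0.76 ± 0.35 in wild type (adjusted p = 0.164) and -1.19 ± 0.37 in the libraries labelled HO-1 deleted (adjusted p = 0.0353). Its call did not hold without control replicate 1 or 2 labelled HO-1 deleted or BDL replicate 1 labelled HO-1 deleted (adjusted p = 0.0894 to 0.196). In the longest transcript of each UGT1 gene 58.2 to 100% of the 50-base words occur in another gene, mostly another UGT1 gene. Only reads that touch a first exon therefore separate these members, and the longest Ugt1a6a transcript has no word that Ugt1a7c lacks.

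In the promoters, 5 of the 44 members found in the RefSeq table held the letters GTTAATNAT, a match to part of the binding motif of HNF1, on either strand (11.4%, against 211 of all 27025 promoters or 0.781%). They were Ugt1a1, Ugt1a9, Ugt1a10, Sult1d1 and Sult2a6. They are shown because they include the bilirubin enzyme Ugt1a1, which was not called, and Ugt1a9, which fell under the deletion label. Capitals mark the match, which was read on the reverse strand for the UGT1 genes. Those 3 genes lie in the same locus, and the printed bases after the match are nearly the same in Ugt1a9 and Ugt1a10. The 5 matches are therefore not independent, and the 11.4% counts related sequence more than once. The windows are chr1:88211885-88211953, chr1:88070655-88070723 and chr1:88055307-88055375 on the plus strand, and chr5:87569047-87569115 and chr7:14254903-14254971 on the minus strand.
Ugt1a1: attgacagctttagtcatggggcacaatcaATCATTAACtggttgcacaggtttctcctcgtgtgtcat
Ugt1a9: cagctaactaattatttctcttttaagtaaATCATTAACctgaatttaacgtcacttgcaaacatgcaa
Ugt1a10: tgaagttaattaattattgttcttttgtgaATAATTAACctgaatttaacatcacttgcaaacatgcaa
Sult1d1: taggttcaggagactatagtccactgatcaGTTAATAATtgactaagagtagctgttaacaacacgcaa
Sult2a6: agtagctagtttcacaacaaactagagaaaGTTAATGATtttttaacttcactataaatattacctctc
These 5 genes did not share a call: Ugt1a9 fell under the deletion label, Ugt1a1, Ugt1a10 and Sult1d1 were called in neither comparison, and Sult2a6 was too low to test. Other motifs were no more frequent in members than in all promoters. The antioxidant response element core TGACNNNGC was in 3 of 44 (6.82%, against 10.1%), TTCNNNGAA, bound by STAT5, in 2 of 44 (4.55%, against 7.18%), and CAAAGTCC (HNF4; 1.22% of all promoters) and TTGCGCAA (C/EBP; 0.17%) in none, all searched on both strands.

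Of the UGT3 genes, which use other sugar donors than glucuronic acid, Ugt3a1 was at 3.77 and 1.90 CPM in wild-type controls, 4.18 and 2.68 in wild-type BDL libraries, 14.1 and 10.1 in controls labelled HO-1 deleted and 0.387 and 2.44 in BDL libraries labelled HO-1 deleted. It fell in the libraries labelled HO-1 deleted (log2 fold change -3.73 ± 0.70, adjusted p = 0.00421), where the controls were the highest of all libraries, and not in wild type (0.29 ± 0.55, adjusted p = 0.761). Ugt3a2 was the more abundant of the pair and was called in neither comparison (-1.13 and -1.91).

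**Figure D2:**
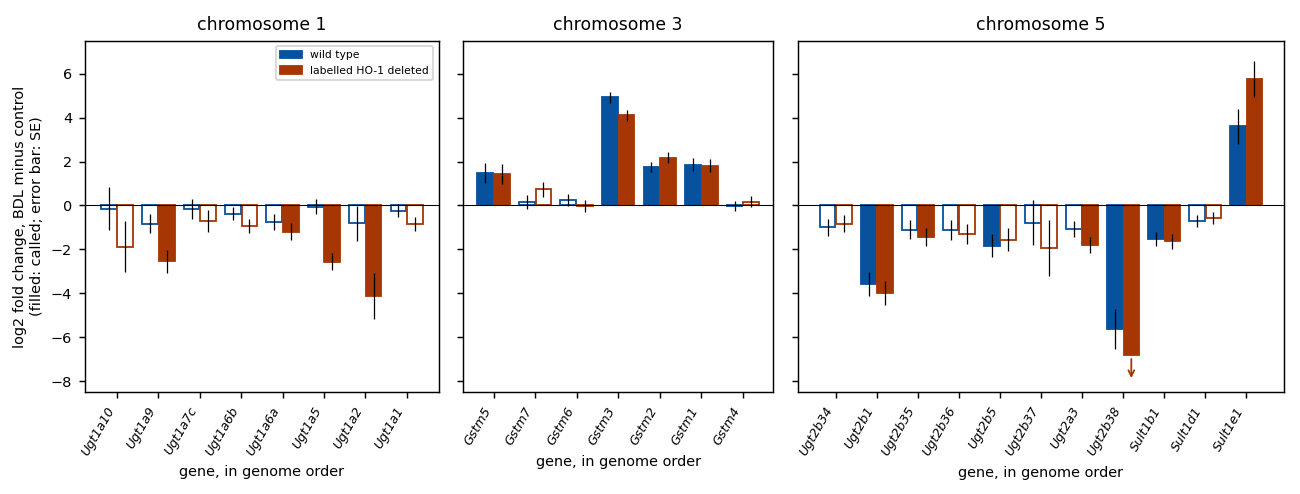
Log2 fold change (BDL minus control, y axis, bars with SE) of the members in the 3 gene clusters with at least 7 members, in genome order along the x axis, in wild type (blue) and in the libraries labelled HO-1 deleted (brown); filled bars were called and the arrow marks a lower bound. The chromosome 1 UGT1 genes and the chromosome 5 UGT2 genes all point down, the filled chromosome 3 Gstm bars all point up, and Sult1e1 points up at the end of the chromosome 5 cluster.

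Gene order set the families side by side, as the plot of the 3 gene clusters shows. All positions are those of the GENCODE annotation of mm10. The 8 UGT1 genes lie at chr1:88055388-88220002, the 7 Gstm genes at chr3:107895821-108044894, and 11 members at chr5:86889767-87591594: all 8 UGT2 genes, then Sult1b1, Sult1d1 and Sult1e1. In this last cluster Sult1b1 fell and Sult1e1, at its end, rose.

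GST calls grouped by class. Their summed level did not separate BDL from control: it was 2241 and 1678 CPM in wild-type controls, 2161 and 1774 in wild-type BDL libraries, 2117 and 1808 in controls labelled HO-1 deleted and 1916 and 2344 in BDL libraries labelled HO-1 deleted. The leading gene by counts, not per length, differed: Mgst1 led in the controls with 28.8 to 35.3% of GST counts and Gstm1 in the BDL libraries with 38.1 to 44.7%. Without Gstm1 and Gstm3 the sum was 1422 to 2012 CPM in the 4 controls and 806 to 1161 CPM in the 4 BDL libraries. These genes rose after BDL in the same data, so leaving them out favours a lower rest after BDL. The rest was led by Mgst1 or Gsta3, which were called in neither comparison.

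**Figure D3:**
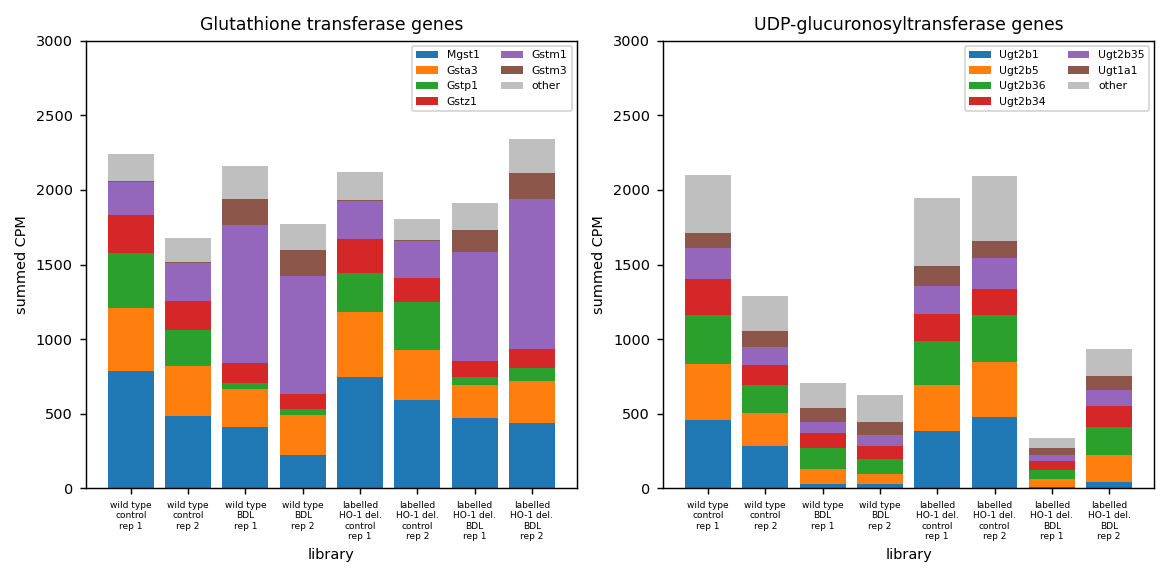
Summed CPM (y axis) of GST genes (left) and UGT genes (right) in each of the 8 libraries (x axis), stacked by gene, with the smaller genes as other. The GST bars keep a like height while the Gstm1 and Gstm3 parts widen after BDL, and all 4 BDL bars of the UGT genes are lower than the controls.

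In the mu class, whose enzymes conjugate epoxides and other electrophiles, 4 of 7 genes rose in each comparison (57.1%) and none fell. Over all genes 11.8% rose in wild type and 15.1% under the deletion label. Gstm3 (chr3:107963696-107969283, minus strand) rose most. It was at 5.15 and 6.17 CPM in wild-type controls, 170.2 and 174 in wild-type BDL libraries, 9.23 and 9.505 in controls labelled HO-1 deleted and 148 and 176 in BDL libraries labelled HO-1 deleted. The log2 fold change was 4.93 ± 0.26 in wild type (adjusted p = 1.78e-06) and 4.11 ± 0.25 in the libraries labelled HO-1 deleted (adjusted p = 5.23e-06), and every BDL library was above every control. Gstm1 (chr3:108012255-108017973, minus strand), the most abundant of the class, was at 223 and 249 CPM in wild-type controls, 925 and 793 in wild-type BDL libraries, 251 and 246 in controls labelled HO-1 deleted and 730.0 and 1007 in BDL libraries labelled HO-1 deleted. It rose by a log2 fold change of 1.86 ± 0.30 in wild type (adjusted p = 0.00185) and 1.81 ± 0.30 in the libraries labelled HO-1 deleted (adjusted p = 0.00158). Gstm2 rose as well (1.75 ± 0.24 in wild type, adjusted p = 0.000765, and 2.18 ± 0.25 in the libraries labelled HO-1 deleted, adjusted p = 0.000208). The Gstm1 calls did not hold with scaling by total counts or in the 3 limma fits on FPKM (adjusted p up to 0.218 in wild type and 0.200 under the deletion label). Of the Gstm2 calls the wild-type one was lost in the same 4 settings (adjusted p up to 0.295) and the other in 3 of them (up to 0.136).

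Gstm5 rose from a low level, 1.22 and 1.61 CPM in wild-type controls, 5.23 and 2.57 in wild-type BDL libraries, 1.24 and 1.16 in controls labelled HO-1 deleted and 2.40 and 4.65 in BDL libraries labelled HO-1 deleted. Its log2 fold change was 1.48 ± 0.43 in wild type (adjusted p = 0.0347) and 1.43 ± 0.47 in the libraries labelled HO-1 deleted (adjusted p = 0.0416). The wild-type call did not hold without wild-type control replicate 1 or 2, wild-type BDL replicate 1 or control replicate 1 or 2 labelled HO-1 deleted (adjusted p = 0.0508 to 0.274), and the other call did not hold without wild-type control replicate 1 or 2, control replicate 1 or 2 labelled HO-1 deleted or BDL replicate 2 labelled HO-1 deleted (adjusted p = 0.0531 to 0.181). Gstm4, Gstm6 and Gstm7, in the same cluster, were called in neither comparison, with log2 fold changes of -0.04 to 0.73. Of the transcript words of Gstm3 28.8% and of Gstm1 23.1% occur elsewhere, most often in Gm8834 and Gstm2-ps1.

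In the alpha class, which conjugates lipid peroxidation products, 3 of 4 genes rose in each comparison (75%, where 11.8% and 15.1% of all genes rose). Gsta1 (chr9:78230656-78242684, plus strand) was at 0.314 and 0 CPM in wild-type controls, 3.13 and 3.39 in wild-type BDL libraries, 0.128 and 0.0847 in controls labelled HO-1 deleted and 4.56 and 7.31 in BDL libraries labelled HO-1 deleted. It rose in both comparisons, 4.32 ± 0.73 in wild type (adjusted p = 0.00241) and 5.77 ± 0.79 in the libraries labelled HO-1 deleted (adjusted p = 0.000563), as log2 fold changes. The counts behind this are small in controls, 0 to 10 per library, and 33 to 118 after BDL. Gsta2 rose less, 1.85 ± 0.32 in wild type (adjusted p = 0.00262) and 2.29 ± 0.33 in the libraries labelled HO-1 deleted (adjusted p = 0.000752). Its wild-type call did not hold with scaling by total counts or in the 3 limma fits on FPKM (adjusted p up to 0.179), and the other was lost in 2 of these 4 settings (up to 0.0714). Gsta4, which acts on 4-hydroxynonenal, was at 14.98 and 16.3 CPM in wild-type controls, 42.3 and 20.04 in wild-type BDL libraries, 17.3 and 15.96 in controls labelled HO-1 deleted and 30.6 and 34.6 in BDL libraries labelled HO-1 deleted. Its log2 fold change was 0.998 ± 0.30 in wild type (adjusted p = 0.0372) and 0.96 ± 0.30 in the libraries labelled HO-1 deleted (adjusted p = 0.0348). In wild type, where the BDL libraries were at 42.3 and 20.04 CPM, the call did not hold without wild-type control replicate 1 or 2, wild-type BDL replicate 1, control replicate 1 or 2 labelled HO-1 deleted or BDL replicate 1 or 2 labelled HO-1 deleted (adjusted p = 0.0534 to 0.385). The call under the deletion label did not hold without control replicate 1 or 2 labelled HO-1 deleted or BDL replicate 1 or 2 labelled HO-1 deleted (adjusted p = 0.0881 to 0.145). Gsta3, the most abundant of the class, was called in neither comparison (-0.53 ± 0.28 in wild type, adjusted p = 0.213, and -0.61 ± 0.28 in the libraries labelled HO-1 deleted, adjusted p = 0.125).

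Gsta1 and Gsta2 rose together and share transcript and promoter sequence. Of the words of Gsta1 89.7% occur elsewhere, 82.9% in the predicted gene Gm3776, so its reads cannot be assigned to Gsta1 alone. The promoters share 29 bases, in capitals, which Gm3776 also has and no other promoter of the table. They lie at chr9:78230521-78230609 on the plus strand and at chr9:78347208-78347296 on the minus strand.
Gsta1: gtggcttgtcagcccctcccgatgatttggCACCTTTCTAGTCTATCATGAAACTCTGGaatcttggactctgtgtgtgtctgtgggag
Gsta2: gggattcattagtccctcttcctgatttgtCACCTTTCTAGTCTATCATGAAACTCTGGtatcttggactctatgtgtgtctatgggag

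In the pi class Gstp1 fell. Gstp1 (chr19:4035407-4037985, minus strand) was at 370.4 and 238 CPM in wild-type controls, 38.7 and 43.6 in wild-type BDL libraries, 263 and 318 in controls labelled HO-1 deleted and 50.8 and 84.6 in BDL libraries labelled HO-1 deleted. The log2 fold change was -2.89 ± 0.33 in wild type (adjusted p = 0.00035) and -2.11 ± 0.32 in the libraries labelled HO-1 deleted (adjusted p = 0.00102), and no BDL library reached any control. Gstp1 made up 97.1 to 98.4% of the pi class counts in controls. Gstp3 was called in neither comparison (0.33 and 0.46).

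Gstp2 cannot be read apart from Gstp1. Its counts gave 1.38 and 1.93 CPM in wild-type controls, 0.760 and 2.02 in wild-type BDL libraries, 4.27 and 5.21 in controls labelled HO-1 deleted and 1.62 and 0.886 in BDL libraries labelled HO-1 deleted. These are small beside its FPKM, which were 193 and 161 FPKM in wild-type controls, 18.9 and 41.1 in wild-type BDL libraries, 53.7 and 118 in controls labelled HO-1 deleted and 27.8 and 21.3 in BDL libraries labelled HO-1 deleted. Of its transcript words 64.3% occur in Gstp1, and of those of Gstp1 62.3% occur in Gstp2. On counts it fell only under the deletion label (log2 fold change -1.76 ± 0.49, adjusted p = 0.0211), a call that did not hold without control replicate 1 or 2 labelled HO-1 deleted or BDL replicate 1 or 2 labelled HO-1 deleted (adjusted p = 0.0591 to 0.0866), and in wild type the value was -0.31 ± 0.47 (adjusted p = 0.699). The likeness extends to the promoters, which share 43 bases, in capitals, that no other promoter of the table holds, at chr19:4038064-4038162 and chr19:4042386-4042471 on the minus strand.
Gstp1: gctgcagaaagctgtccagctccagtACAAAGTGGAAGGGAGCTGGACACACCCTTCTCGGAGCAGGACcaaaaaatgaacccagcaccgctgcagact
Gstp2: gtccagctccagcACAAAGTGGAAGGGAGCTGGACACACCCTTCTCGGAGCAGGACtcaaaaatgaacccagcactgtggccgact

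Of the other GST classes Gstz1, Gsto1 and Mgst3 were called, each in wild type only. Gstz1, which isomerises maleylacetoacetate in tyrosine breakdown, was at 255 and 197 CPM in wild-type controls, 136 and 98.3 in wild-type BDL libraries, 231 and 164 in controls labelled HO-1 deleted and 112 and 125 in BDL libraries labelled HO-1 deleted. It fell in wild type (log2 fold change -0.95 ± 0.28, adjusted p = 0.0362), a call that did not hold without wild-type control replicate 1 or 2 or wild-type BDL replicate 2 (adjusted p = 0.0758 to 0.263), and under the deletion label the value was -0.74 ± 0.28 (adjusted p = 0.0695). Gsto1, a reductase of dehydroascorbate and arsenic compounds, was at 27.8 and 26.1 CPM in wild-type controls, 15.3 and 11.2 in wild-type BDL libraries, 17.9 and 20.004 in controls labelled HO-1 deleted and 16.2 and 21.9 in BDL libraries labelled HO-1 deleted. In wild type it fell by a log2 fold change of -1.02 ± 0.24 (adjusted p = 0.0117), and the call did not hold without wild-type control replicate 1 or 2 or wild-type BDL replicate 2 (adjusted p = 0.056 to 0.0904). Under the deletion label it was -0.01 ± 0.24 (adjusted p = 0.978).

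Mgst1, a membrane-bound enzyme of microsomes and mitochondria and the leading GST by counts in controls, was at 785 and 484 CPM in wild-type controls, 410.4 and 221 in wild-type BDL libraries, 747 and 593 in controls labelled HO-1 deleted and 469 and 440.2 in BDL libraries labelled HO-1 deleted. It was called in neither comparison (-1.01 ± 0.37 in wild type, adjusted p = 0.0789, and -0.56 ± 0.36 in the libraries labelled HO-1 deleted, adjusted p = 0.269). Mgst3, which can make leukotriene C4, was called higher in wild type (log2 fold change 3.42 ± 0.62, adjusted p = 0.00332) from a very low level. Its values were 0.0942 and 0.129 CPM in wild-type controls, 1.32 and 1.15 in wild-type BDL libraries, 0.727 and 0.593 in controls labelled HO-1 deleted and 1.12 and 2.66 in BDL libraries labelled HO-1 deleted. Gstk1 and the 3 Gstt genes were called in neither comparison, with log2 fold changes of -0.75 to 0.84.

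Of the 7 SULTs tested, 1 rose and 3 fell in wild type (57.1%), and 1 rose and 4 fell under the deletion label (71.4%). Over all genes 18.4% and 27.5% were called. Sult2a8 (chr7:14410686-14446769, minus strand), a sulfotransferase that acts on bile acids, fell more than any other tested member in wild type. It was at 254 and 237 CPM in wild-type controls, 0.994 and 1.26 in wild-type BDL libraries, 394 and 279 in controls labelled HO-1 deleted and 0.232 and 0.443 in BDL libraries labelled HO-1 deleted. The log2 fold change was -7.79 ± 0.36 in wild type (adjusted p = 8.64e-07) and -10.26 ± 0.44 in the libraries labelled HO-1 deleted (adjusted p = 3.92e-07). It held 57.5 to 69.9% of SULT counts in the controls, and in the BDL libraries Sult1a1 led with 73.9 to 82.4%. Sult5a1 (chr8:123140192-123158315, minus strand) also fell, with values of 27.6 and 15.8 CPM in wild-type controls, 1.08 and 1.58 in wild-type BDL libraries, 47.4 and 24.1 in controls labelled HO-1 deleted and 0.928 and 2.66 in BDL libraries labelled HO-1 deleted, and its log2 fold change was -4.06 ± 0.50 in wild type (adjusted p = 0.000711) and -4.70 ± 0.56 in the libraries labelled HO-1 deleted (adjusted p = 0.000437). For both genes every BDL library was below every control.

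Sult1e1, the oestrogen sulfotransferase (chr5:87575969-87591594, minus strand), rose from a very low level. It was at 0.283 and 0.193 CPM in wild-type controls, 1.26 and 4.81 in wild-type BDL libraries, 0.0427 and 0.212 in controls labelled HO-1 deleted and 11.4 and 4.43 in BDL libraries labelled HO-1 deleted. The log2 fold change was 3.60 ± 0.78 in wild type (adjusted p = 0.011) and 5.77 ± 0.83 in the libraries labelled HO-1 deleted (adjusted p = 0.0011), and the wild-type call did not hold without wild-type control replicate 1 or 2 (adjusted p = 0.0833 to 0.0876). The BDL values of the 2 labels overlapped, and the difference of the BDL effects was not called (adjusted p = 0.613).

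Sult1b1, which sulfates phenols and thyroid hormones, was at 8.45 and 10.5 CPM in wild-type controls, 4.24 and 2.29 in wild-type BDL libraries, 6.58 and 7.39 in controls labelled HO-1 deleted and 2.36 and 1.99 in BDL libraries labelled HO-1 deleted. It fell in both comparisons (-1.51 ± 0.32 in wild type, adjusted p = 0.00791, and -1.64 ± 0.36 in the libraries labelled HO-1 deleted, adjusted p = 0.00666, as log2 fold changes). Neither call held throughout: the wild-type one failed without wild-type control replicate 2 (adjusted p = 0.0664). That of the deletion label failed without BDL replicate 1 labelled HO-1 deleted (adjusted p = 0.0536). Sult1c2 fell under the deletion label (-0.42 ± 0.42 in wild type, adjusted p = 0.536, and -2.77 ± 0.52 in the libraries labelled HO-1 deleted, adjusted p = 0.0031), a call that did not hold without BDL replicate 1 labelled HO-1 deleted (adjusted p = 0.0627). Sult1a1, the main phenol sulfotransferase, was at 92.9 and 85.95 CPM in wild-type controls, 151 and 115 in wild-type BDL libraries, 115 and 55.7 in controls labelled HO-1 deleted and 148 and 155 in BDL libraries labelled HO-1 deleted and was called in neither comparison (0.57 ± 0.31 in wild type, adjusted p = 0.237, and 0.83 ± 0.32 in the libraries labelled HO-1 deleted, adjusted p = 0.0713). The catecholamine enzyme Sult1d1 was not called either (-0.71 and -0.58).

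**Figure D4:**
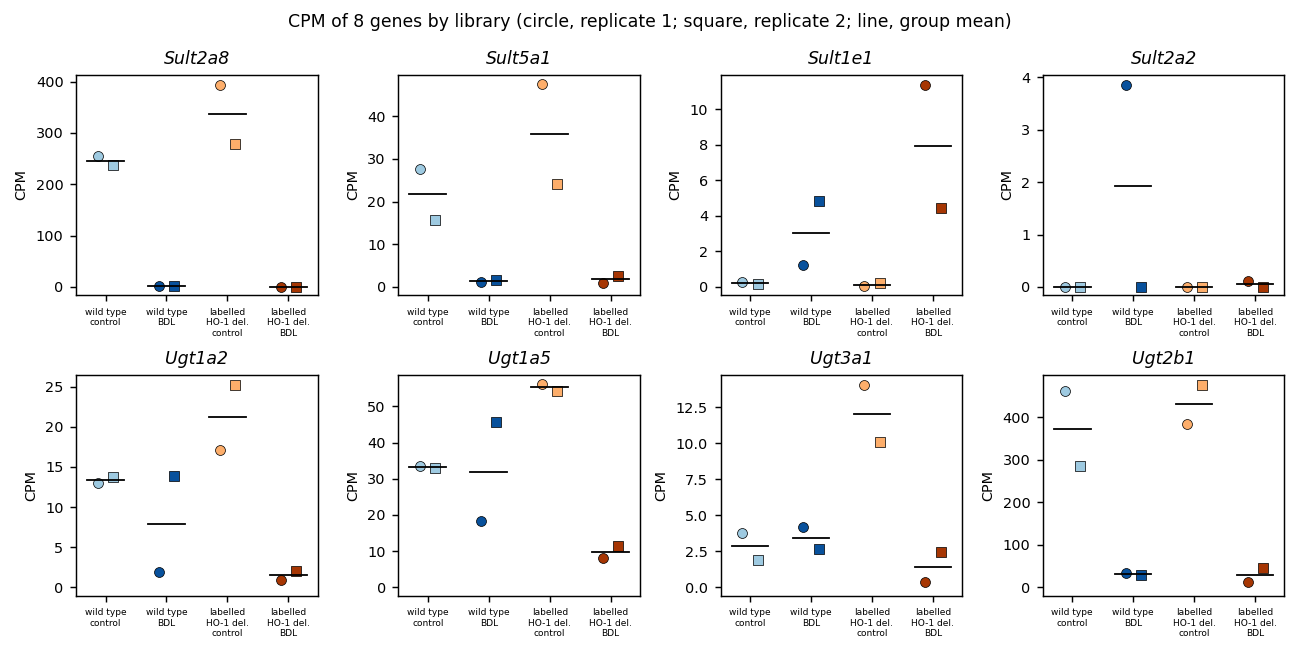
CPM (y axis, linear, its own scale in each panel) of 8 members in the 4 groups (x axis), with a circle for replicate 1, a square for replicate 2 and a line for the group mean. Sult2a8 and Sult5a1 are near 0 in all BDL libraries, and Ugt2b1 is at 12.1 to 44.3 CPM there, below every control. Sult2a2 has counts almost only in wild-type BDL replicate 1, and Ugt1a5 is lowest in both BDL libraries labelled HO-1 deleted.

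The Sult2a genes other than Sult2a8 were found almost only in wild-type BDL replicate 1, the library with female Xist counts. In mouse liver the enzymes of this subfamily, which act on dehydroepiandrosterone and bile acids, are known to be higher in females. In that library Sult2a2 had 132 counts (3.86 CPM), Sult2a1 had 19 and Sult2a6 had 21, and over the 7 others together these were 3, 3 and 2. Sult2a7 was the exception, with 4 to 16 counts in each control and 0 to 2 in each BDL library. Of the words of Sult2a2 62.1% occur elsewhere, 41.3% in Sult2a1. Of 15 female-biased liver genes outside these families 12 were higher in wild-type BDL replicate 1 than in replicate 2 and 7 were the highest of all 8 libraries, and of 15 male-biased genes 2 were higher than in replicate 2. The same shares over all genes are not given here. These are single libraries that also differ in RN45S share (37.1% and 18.8%). Some of the female-biased genes had few counts, such as Cyp3a41a with 44 over the 8 libraries.

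Male-biased liver genes were lower in sum after BDL. The summed share of the 15 male-biased genes was 0.812 to 1.63% in the controls and 0.120 to 0.332% in the BDL libraries, 1 of which had female Xist counts. None of the 15 rose, 8 fell in wild type (53.3%) and 11 fell under the deletion label (73.3%), where none of the 4 libraries had female Xist counts. Over all genes 18.4% were called in wild type and 27.5% under the deletion label, 6.59% and 12.4% of them lower. Of 11 tested female-biased genes 5 rose and 1 fell in wild type (54.5%), and 6 rose and 1 fell under the deletion label (63.6%). The summed share of the female-biased list overlapped, at 0.0181 to 0.0257% in the controls and 0.0157 to 0.0471% in the BDL libraries. The pericentral hepatocyte list, whose zone holds many conjugation enzymes, was at 0.532 to 0.802% in controls and 0.171 to 0.271% after BDL. Its 16 genes counted 1 higher and 6 lower in wild type (43.75%) and 0 higher and 11 lower under the deletion label (68.75%). The periportal list also separated, at 1.38 to 2.14% in controls and 1.02 to 1.23% after BDL. Of its 15 tested genes 1 rose and 8 fell in wild type (60%). Under the deletion label 2 rose and 1 fell (20%, below the share of all genes). The part of these shifts in the UGT, Sult2a8 and Sult5a1 values was not tested.

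Some marker lists of other cells were higher after BDL and others were not. The 17 cholangiocyte genes were at 0.0349 to 0.0488% of counts in controls and 0.0884 to 0.209% after BDL, with Cldn4 at 0 in wild-type control replicate 2. The monocyte list was at 0.00272 to 0.00392% in controls and 0.0151 to 0.0290% after BDL. The neutrophil list, with Elane, Camp or another marker at 0 in 6 of the 8 libraries, went from 0.00173 to 0.00597% to 0.0648 to 0.131%. The stellate cell list went from 0.0549 to 0.0772% to 0.272 to 0.555%, and the Kupffer cell list from 0.0610 to 0.0871% to 0.0970 to 0.186%. Of the tested genes in these 5 lists 11 of 16, 12 of 13, 6 of 9, 8 of 15 and 3 of 15 rose in wild type and 10, 12, 6, 9 and 7 under the deletion label. In the same lists 1 stellate cell gene fell in each comparison and 1 Kupffer cell gene under the deletion label. Called in either direction were 68.75, 92.3, 66.7, 60 and 20% of these lists in wild type, where 18.4% of all genes were. Under the deletion label the shares were 62.5, 92.3, 66.7, 66.7 and 53.3%, where 27.5% of all genes were called. The Kupffer cell list was thus near the share of all genes in wild type.

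Sinusoidal endothelial genes overlapped, at 0.0904 to 0.126% in controls and 0.112 to 0.172% after BDL. Of 14 none was called in wild type by edgeR (2 had an unadjusted p under 0.05). Under the deletion label 2 rose (14.3%, where 27.5% of all genes were called). T and NK cell genes were at 0.000566 to 0.000632% in controls and 0.000371 to 0.00104% after BDL, and B and plasma cell genes at 0.00910 to 0.0247% and 0.0106 to 0.0164%. None of their 4 and 7 tested genes was called by edgeR in either comparison, where 1 and 1 in wild type and 0 and 3 under the deletion label had an unadjusted p under 0.05. The summed hepatocyte list overlapped between groups, at 9.88 to 11.2% in controls and 6.84 to 10.6% after BDL. Gene by gene, however, 10 of its 25 tested genes fell in wild type (40%) and 5 under the deletion label (20%) and none rose. Over all genes 18.4% and 27.5% were called, 6.59% and 12.4% lower. The median log2 fold changes of the list were -0.93 and -0.59. The part of these cells in the values of the UGTs and SULTs that fell and of the 4 mu and 3 alpha GSTs that rose was not tested.

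**Figure D5:**
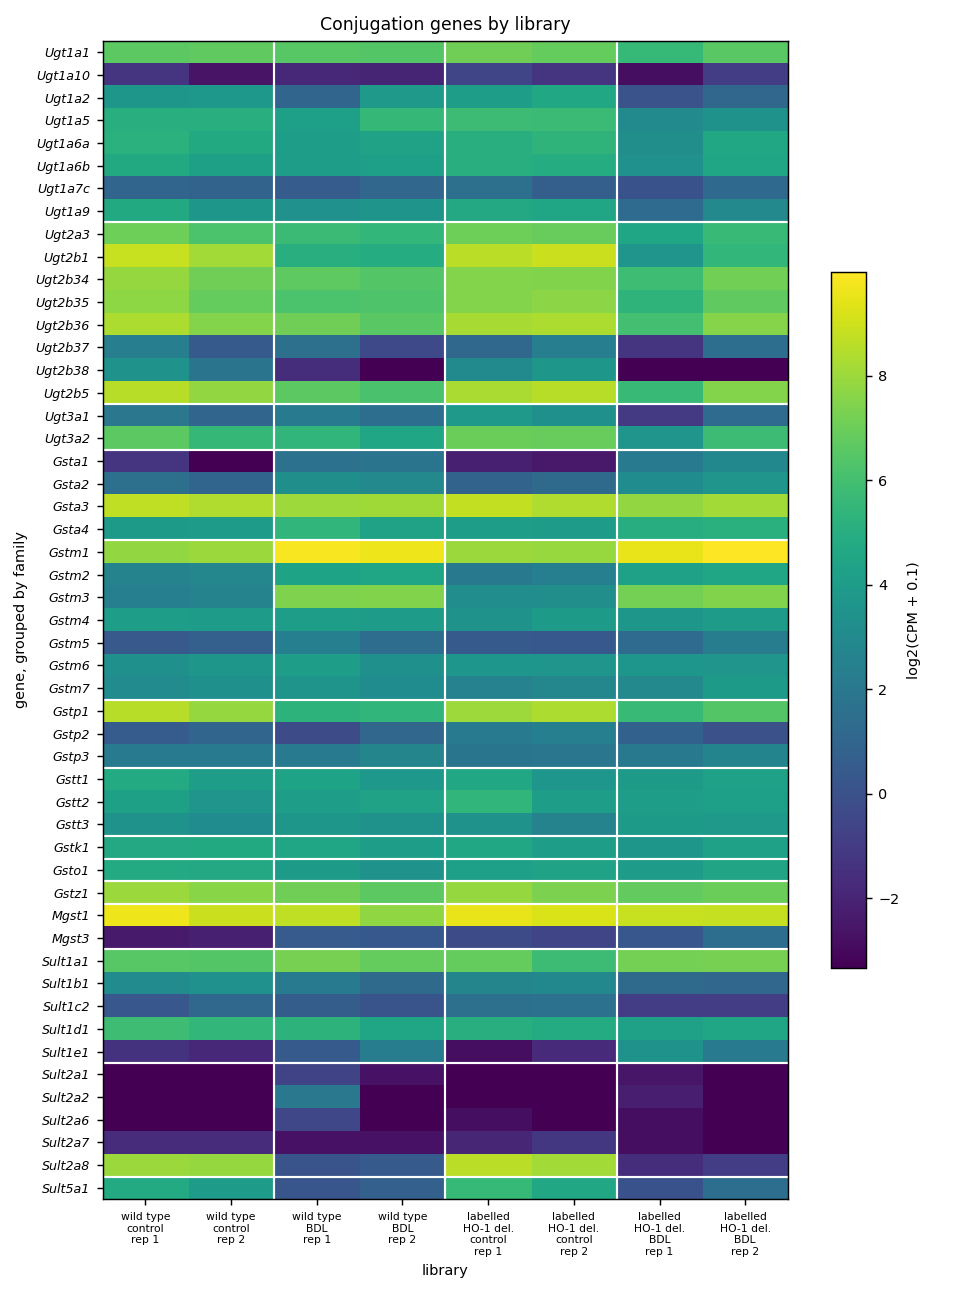
Levels of all 51 members (rows, by family) in the 8 libraries (columns), as log2(CPM + 0.1) on a colour scale from dark (low) to yellow (high). Gstm1 and Gstm3 turn lighter and Sult2a8, Ugt2b1 and Gstp1 darker in the BDL columns, and Sult2a2 stands out in wild-type BDL replicate 1.

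Between the genotype labels no member was called. In controls 0 of 47 passed, where 0.191% of all genes did, and 7 had an unadjusted p under 0.05. After BDL 0 of 47 passed, where 0.0636% of all genes did, and 8 had an unadjusted p under 0.05. The difference of the BDL effects was called for 0 of 47 members and for 0.00707% of all genes, and 9 members had an unadjusted p under 0.05. A gene past the threshold under one label and not the other, such as Ugt1a9 or Mgst3, was thus not shown to respond differently. DESeq2, used in place of edgeR, called Ugt3a1 higher under the deletion label in controls (adjusted p = 0.0153) and Ugt1a5 lower after BDL (adjusted p = 0.00219). For the difference of the BDL effects it called Ugt1a5 (adjusted p = 0.00461), Ugt3a1 (0.00536) and Sult2a8 (0.0465), each with a more negative effect under the deletion label.

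For Ugt1a5 and Ugt1a2 the call between genotypes depended on the libraries and the method used. After BDL the level under the deletion label differed from wild type by a log2 fold change of -1.77 ± 0.38 for Ugt1a5 (adjusted p = 0.168) and -2.64 ± 1.04 for Ugt1a2 (adjusted p = 0.406). Leaving out wild-type BDL replicate 1, the library with female Xist counts, both were called lower, by -2.29 (adjusted p = 0.00158) and -3.51 (adjusted p = 0.00147). For the difference of the BDL effects without that library the adjusted p was 0.00249 for Ugt1a5 and 0.00252 for Ugt1a2. Without wild-type BDL replicate 2 instead, the values after BDL were -0.97 (adjusted p = 0.339) and -0.65 (adjusted p = 0.722). Over the settings tried, Ugt1a5 was called after BDL in 5 of 20, DESeq2, scaling by total counts and no count filter among them, and Ugt1a2 in 3 of 20, of which scaling by total counts was 1. With 1 wild-type BDL library left, that library is assumed to vary like the other groups.

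Genes that supply the cosubstrates, and the lists after them, are read against the 18.4% of all genes called in wild type and 27.5% under the deletion label. Of 8 genes for UDP-glucuronic acid, none was called in wild type (2 had an unadjusted p under 0.05) and 3 fell under the deletion label (37.5%), among them Ugp2, which makes UDP-glucose (-0.75 ± 0.25 in wild type, adjusted p = 0.0557, and -1.29 ± 0.25 in the libraries labelled HO-1 deleted, adjusted p = 0.00396, as log2 fold changes). Of 9 genes for PAPS, the sulfate donor, 2 fell in wild type (22.2%) and 1 under the deletion label (11.1%). Suox, sulfite oxidase, was called in both (-0.86 and -0.74), but its calls did not hold without each of several libraries, with adjusted p up to 0.189 and 0.310. Among 19 genes of glutathione supply and turnover 1 rose and 3 fell in wild type (21.1%), and 6 rose and 3 fell under the deletion label (47.4%). The cystine importer Slc7a11 rose in both (3.18 ± 0.68 in wild type, adjusted p = 0.00791, and 5.31 ± 0.79 in the libraries labelled HO-1 deleted, adjusted p = 0.00083), although without wild-type control replicate 1 or 2 the wild-type call was lost (adjusted p up to 0.0731). Ahcy, which splits S-adenosylhomocysteine, fell in wild type (-1.85 ± 0.28, adjusted p = 0.00122). Of 5 deconjugating enzymes 1 fell in each comparison.

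Exporters of conjugates and bile acids, which carry the products of these enzymes out of the cell, gave calls in both directions. Of 12 tested 5 rose and 2 fell in wild type (58.3%), and 5 rose and 1 fell under the deletion label (50%). The export pump Abcb1a rose in both (3.55 ± 0.27 in wild type, adjusted p = 2.3e-05, and 2.97 ± 0.26 in the libraries labelled HO-1 deleted, adjusted p = 5.49e-05). Abcc4, a pump of the blood-facing membrane, rose as well (1.87 ± 0.29 in wild type, adjusted p = 0.00153, and 1.65 ± 0.29 in the libraries labelled HO-1 deleted, adjusted p = 0.00216), and Abcg2, a pump of the canalicular membrane, fell (-1.34 ± 0.23 in wild type, adjusted p = 0.00237, and -1.65 ± 0.24 in the libraries labelled HO-1 deleted, adjusted p = 0.000732).

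Regulators of conjugation genes, the transcription factors named for this role, gave 3 higher and 5 lower of 24 in wild type and 2 higher and 6 lower under the deletion label, 33.3% in each, where 18.4% and 27.5% of all genes were called. Nfe2l2, the factor NRF2 that drives many GST genes, was at 46.2 and 53.1 CPM in wild-type controls, 116 and 141 in wild-type BDL libraries, 74.2 and 70.5 in controls labelled HO-1 deleted and 95.01 and 98.4 in BDL libraries labelled HO-1 deleted. It rose in wild type (1.37 ± 0.22, adjusted p = 0.00186) and was not called under the deletion label (0.42 ± 0.22, adjusted p = 0.174). The nuclear receptor Ppara fell in both (-1.52 ± 0.29 in wild type, adjusted p = 0.00437, and -1.69 ± 0.29 in the libraries labelled HO-1 deleted, adjusted p = 0.00195). Of 18 NRF2 target genes outside the 3 families 7 rose and 1 fell in wild type (44.4%) and 8 rose and 2 fell under the deletion label (55.6%), with medians of 0.76 and 0.64. The summed share of this list overlapped, at 0.145 to 0.188% of counts outside RN45S in the controls and 0.148 to 0.188% in the BDL libraries. G6pdx and Pgd, of the pentose phosphate pathway, rose in both comparisons, by 1.51 and 1.81 and by 1.27 and 1.78, and Me1, malic enzyme, fell in wild type (-1.41 ± 0.23, adjusted p = 0.00178).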

How the data were processed

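RNA of mouse liver from a RiboTag experiment was sequenced in 8 libraries, 2 for each of the 4 groups. Whether they hold pulled-down or input RNA is not given in the sources used here. Per the labels' protocols, RNA was purified on RNeasy columns, ribosomal RNA was depleted with FastSelect and stranded KAPA HyperPrep libraries were made. STAR 2.7.3a, Cufflinks and the build mm10 are given in the submitters' processing notes. The counting strand and the annotation release are not given in the sources used here, so antisense reads may be included. The authors deposited whole-number counts per gene symbol for 24982 genes, used as counts, and a Cufflinks table of FPKM by the authors for 24917 genes, used for levels per length and as an alternative. Of the symbols 24853 (99.48%) were found in reference lists of gene names.

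Genes were filtered with filterByExpr, leaving 14147, and scaled by trimmed means of M-values (factors 0.460 to 1.41; effective sizes 4.51 to 47.2 M counts). Group means were fitted to all 8 libraries with edgeR 4.0.16 in R 4.3.3 (robust quasi-likelihood, 4 residual degrees of freedom, common coefficient of variation 23.0%), with two-sided F tests and Benjamini-Hochberg adjustment over all genes of a comparison. The scripts were tested on simulated data. Alternatives were DESeq2 1.42.0, limma 3.58.1 on log2(FPKM + 1) or log2(FPKM + 0.1) with or without a mean FPKM of at least 1, other scalings and count filters, fits without RN45S or with its share as a covariate, the contrast's groups alone, each library left out, and the female and the lowest-count library left out together. For a group without counts the fold is given as a bound, with the group set to a floor of 3 counts in all, which covers counting error only.

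Shared sequence is the share of 50-base words of a gene's longest protein-coding GENCODE vM21 transcript that occur in any transcript of another gene. Promoters are from RefSeq (GRCm38.p6), where 44 of the 51 members were found, and bases after the start were not used. The HNF1 motif was shortened by 1 letter after its matches were seen, which left the members that match the same.

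The members, the gene lists and the alternatives were chosen with earlier results of these data known. The text names, by family, the 2 members highest in mean CPM, the 3 largest changes in each direction among those called after BDL and all called between genotypes, and up to 4 genes of each other list by adjusted p. Gstm5, Ugt1a6a, Ugt2a3, Ugt2b35 and the members given as not called were named beyond this rule, after their values were seen. The level of 1 gene of the cholangiocyte list is not reported here.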

Additional observations from a re-analysis of the deposited data

Results flagged for a closer look

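Counts outside the comparisons were found for 9 conjugation genes that the filter on low counts kept out of the tests, with more counts in wild-type BDL replicate 1, the library with female Xist counts, than in any control. Sult2a2 had 132 counts there, Sult2a6 had 21, Sult2a1 had 19, Sult2a4 had 18 and Sult2a5 had 12. Smaller numbers were seen for Mgst2 (7 counts), Sult3a1 (7), Sult2b1 (5) and Sult4a1 (4). In CPM that library was the highest of the 8 for each of these except Sult2b1, which was at 0.146 CPM there, 0.164 in wild-type BDL replicate 2 and 0.222 in BDL replicate 2 labelled HO-1 deleted. None was tested.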

How the results depend on the processing

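All 41 member calls after BDL kept their direction in every setting that gave a value. Of 18 calls in wild type 11 held with each library left out in turn and 7 in every setting, and of 23 under the deletion label 14 and 6. The counts of members called were 9 higher and 9 lower in wild type and 8 higher and 15 lower under the deletion label. DESeq2 gave 14 lower in wild type, and its calls between genotypes were 1 higher in controls, 1 lower after BDL and 3 lower for the difference of BDL effects. Scaling by total counts, which shifts the median log2 fold change of all genes to -0.12 in wild type and -0.31 under the deletion label, gave 4 higher and 5 lower in wild type, 3 higher under the deletion label and 2 lower after BDL. Without the count filter 2 members were lower after BDL under the deletion label and 2 had a lower BDL effect. On log2(FPKM + 1) the counts called higher were 3 and 4, on log2(FPKM + 0.1) 2 and 5, and on log2(FPKM + 1) without the filter on low values 3 and 2, with 4 and 4 called lower; the median of all genes was -0.39 and -0.19, -0.49 and -0.28 on the first 2 of these scales. With both the female library and the one of fewest counts left out 15 members were lower in wild type, 2 were lower under the deletion label after BDL and 3 had a lower BDL effect. With 1 library left out at a time, 6 to 12 members were higher and 6 to 14 lower in wild type, 6 to 9 higher and 8 to 19 lower under the deletion label, 0 to 2 lower after BDL between genotypes, and 0 to 2 had a lower BDL effect; a lone library is assumed to vary like the other groups. The cause of these shifts was not tested. No paired analysis was possible because the labels give no replicate numbers that link libraries across groups. Precision is limited by 2 libraries a group and, for Sult1e1, Gsta1, Mgst3 and the Sult2a genes, by counts near 0 in some groups.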
